A study of Homo sapiens with 4 samples.

Results

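MARS1, TCOF1, COPS6 and YKT6 are 4 protein-coding genes with 16 of the 9401 peaks in a deposited peak list. The list is named for immunoprecipitates of SMD2 from HEK293T cells, a line derived from human embryonic kidney. The genes were chosen from the peak list itself, by their symbols and by their place in it. The list is in genome order for its first 9389 entries. All of its last 12 entries, which stand after that sorted part, belong to these 4 genes. Their numbers of peaks and the place of those entries are therefore a description, and no test was made on them. Why these genes were followed is not given in the sources used here.

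The list holds gene symbols for 6399 genes. The study has 3 libraries of SMD2 immunoprecipitate (SMD2IP) and 1 Input library, all from HEK293T cells. In the labels' protocols every plate was fed 4-thiouridine at 200 uM for 14 h and lit at 365 nm, so both groups share this treatment. The antibody was anti-FLAG, and the labels do not say how the tagged protein was made or whether the cells are 1 clone. A peak list has no expression levels, so the identity of the cells could not be checked against marker genes. The list is named for SMD2IP and gives positions only. It has no height, strand, value per library or value for the Input, so depth is unknown, and no peak could be compared between the SMD2IP and the Input libraries or between replicates.

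SMD2 is a subunit of the Sm ring, the collar of proteins on the spliceosomal small nuclear RNAs. In PAR-CLIP, light joins 4-thiouridine in RNA to the protein that touches it, and a nuclease trims the RNA to short stretches around the contact. The title of the series names pseudouridine reading, mRNA splicing and tumour growth as its subject. The 4 genes have unrelated known roles. MARS1 is the cytosolic methionyl-tRNA synthetase, which loads methionine onto its tRNAs. TCOF1 encodes treacle, a nucleolar protein needed for ribosomal RNA transcription and the gene most often mutated in Treacher Collins syndrome. COPS6 is a subunit of the COP9 signalosome, which takes NEDD8 off cullin ubiquitin ligases. YKT6 is a lipid-anchored SNARE protein of membrane fusion.

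Listed peaks were spread very unevenly over the 4 genes. MARS1 had 11, TCOF1 had 3, and COPS6 and YKT6 had 1 each. Of the 12 last entries 7 were in MARS1, 3 in TCOF1, 1 in COPS6 and 1 in YKT6. In the sorted part MARS1 had 4 peaks and the other genes had 0. No peak of the sorted part, whatever gene it was assigned to, overlapped the span of TCOF1, COPS6 or YKT6. These genes are thus in the list only through the entries at its end. Of 20056 protein-coding RefSeq genes, 22.3% had at least 1 listed peak, 2.93% had at least 3 and 0.00499%, which is MARS1 alone, had at least 11. In the sorted part 1.13% of these genes had at least 4 peaks, as MARS1 did. The genes were chosen on these entries, so nothing is read from the comparison.

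**Figure D1:**
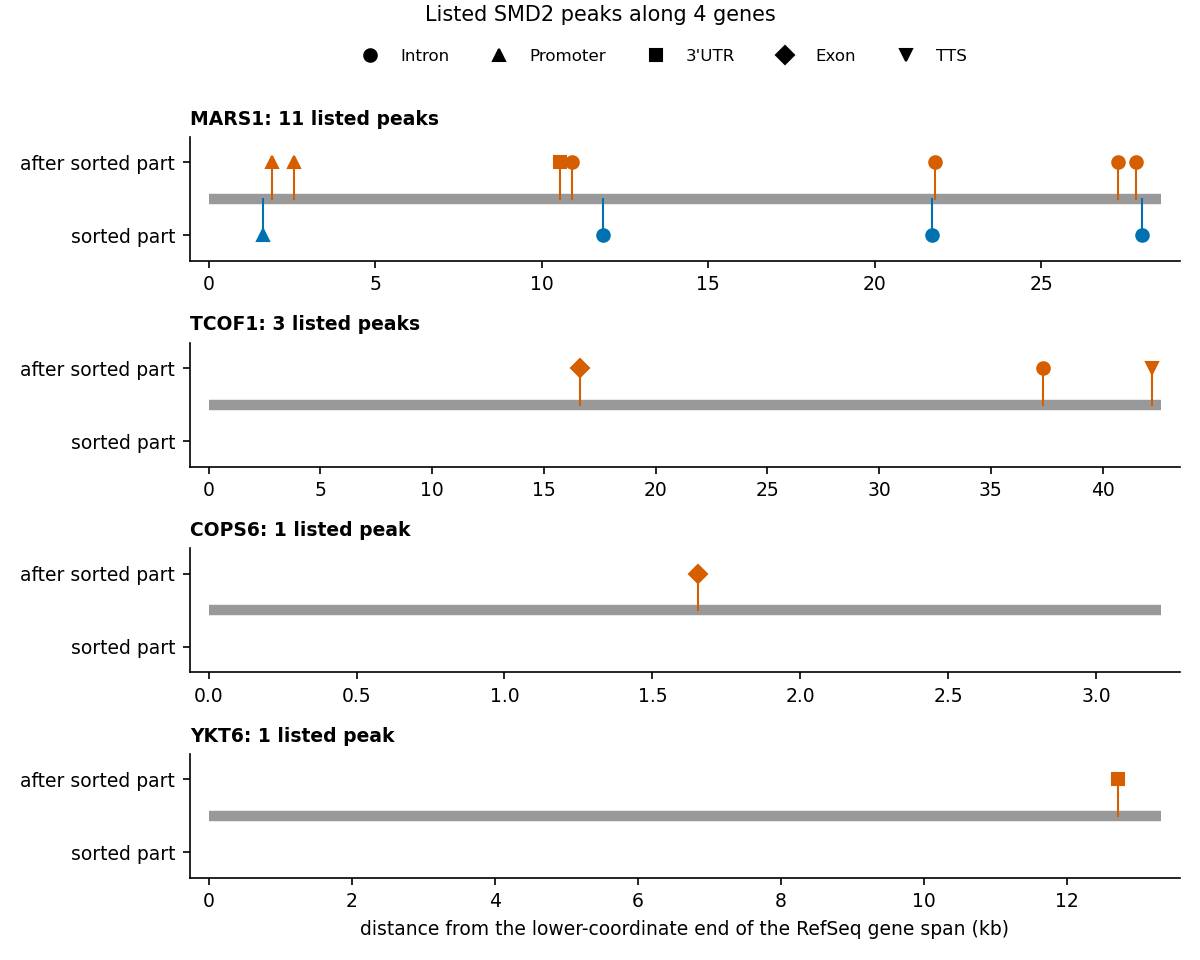
Position of the 16 listed peaks along each gene, in kb from the lower-coordinate end of its RefSeq span (grey bar, drawn to its own scale for each gene). Orange marks above the bar are the 12 entries after the sorted part and blue marks below it the 4 entries in the sorted part, with the annotation class as the symbol. All blue marks are in MARS1, and each lies beside orange marks.

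MARS1 (ENSG00000166986.15) lies on the plus strand of chromosome 12, from 57488068 to 57516652 (hg38), a span of 28585 nt. Its 11 peaks ran from 57489677 to 57516091 and covered 376 bases, 1.31% of the span. They formed 4 clusters when peaks with no more than 1000 nt between them were joined. Each cluster held exactly 1 peak of the sorted part. The last entries added 2, 2, 1 and 2 peaks to the 4 clusters, in the order in which they lie along the gene.

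The first cluster began 1609 nt after the start of the gene and extended over 988 nt. Its peaks stood at 57489677-57489713 (sorted part), 57489934-57489981 and 57490617-57490664 (both among the last entries). They were 37, 48 and 48 nt wide, and the list puts all 3 in the promoter class. They lie downstream of the RefSeq start and not on it. The list assigns the first 2 to transcript ENST00000630803.1 and the third to ENST00000262027.10, as all later MARS1 peaks. Distances from the starts of these transcripts were not measured. The list has 1091 other peaks of this class. Of these, 416 lay inside the span of a protein-coding gene of known strand, and so downstream of its start. Among the 416, 70.0% were at least as far from the start of the gene as the third of these MARS1 peaks, 2549 nt. To show what lies at the start itself, the RefSeq window from 57487818 to 57488117 (GRCh38.p14, plus strand) is given here, with the first 50 transcribed bases in capitals. No listed peak fell in it, and the nearest MARS1 peak began 1560 nt past its end.
MARS1 promoter window: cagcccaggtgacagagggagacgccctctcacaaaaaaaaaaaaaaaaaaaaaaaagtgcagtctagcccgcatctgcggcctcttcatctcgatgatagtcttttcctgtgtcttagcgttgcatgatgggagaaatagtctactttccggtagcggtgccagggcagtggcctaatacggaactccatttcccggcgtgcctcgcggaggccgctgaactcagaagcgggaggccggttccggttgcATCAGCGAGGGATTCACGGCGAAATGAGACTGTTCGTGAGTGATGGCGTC

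The second cluster lay in the middle of MARS1, 10529 to 11861 nt from its start. The last entries gave 57498597-57498646, of 50 nt, and 57498972-57498998, of 27 nt. The sorted part gave 57499896-57499929, of 34 nt. The list labels the first of these 3' UTR and the other 2 intron. The 3' UTR label stands 18006 nt before the end of the gene, with 7 further MARS1 peaks between them. Of 817 peaks of this class inside other protein-coding genes of known strand only 5.88% were at least as far from the gene's end. RefSeq exons were not available here, so the label could not be checked.

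Both remaining MARS1 clusters were intronic in the list's annotation. The third, of 122 nt, paired a peak of the last entries at 57509869-57509898 (30 nt) with a peak of the sorted part at 57509777-57509795 (19 nt). Only 73 nt separated these, the shortest gap in the gene. The fourth, of 741 nt, began 27283 nt from the start of the gene. Its peaks were 57515351-57515368 (18 nt) and 57515881-57515917 (37 nt) from the last entries, and 57516064-57516091 (28 nt) from the sorted part. The last of these ended 561 nt before the end of MARS1. Gaps within clusters were 73 to 897 nt, and gaps between clusters were 5452 to 9847 nt.

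The closeness of MARS1 peaks rests on the last entries. With all entries, 11 of 11 MARS1 peaks had another MARS1 peak within 1000 nt. In the sorted part alone this was 0 of 4, and the nearest gaps there were 6268 to 10182 nt. Among other protein-coding genes with at least 3 peaks, 15.0% of 2213 peaks had such a neighbour. Some of these are single stretches listed in pieces, since 77 of the 2213 touch another peak of the gene. With peaks within 50 nt joined, the share was 11.1% of 2116 peaks, and MARS1 kept 11 of 11. By the gene type given in the list itself, 228 protein-coding genes had 4 or more peaks. In 3 of them, MARS1, RAB21 and SF1, every peak had a neighbour this close. After the joining 213 such genes were left, and of the 3 only MARS1 still met this. No gap in MARS1 was shorter than 73 nt, so joining at 50 nt could not change MARS1, and nothing is read from this. In the sorted part alone RAB21 and SF1 met it and MARS1 did not. The distance of 1000 nt was set after the positions were seen, and SF1 and RAB21 are named for this count only.

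Per 10 kb of its span MARS1 had 3.85 peaks with all entries, and 1.40 in the sorted part alone. The first value rests on entries by which the genes were chosen. Every peak naming a gene was counted, also any outside its span. In the sorted part 226 protein-coding genes matched to RefSeq had at least 4 peaks. Of these, 21 were as dense or denser on those entries, MARS1 included. Any of the 226 with a span no longer than that of MARS1 is at least as dense by construction. A high density among them therefore cannot be told apart from a short span. With all entries, the genes nearest to MARS1 in number of peaks were KMT2C, DTNA and AUTS2 with 10 each, the first a histone methyltransferase. Their spans were 10.5, 13.9 and 41.8 times that of MARS1, and 7 of 11 peaks were intronic in MARS1, against 9, 9 and 8 of 10 in these genes. Neighbours within 1000 nt were found for 2 peaks in KMT2C and 0 in DTNA and AUTS2. The likeness used here is the number of peaks and then the ratio of spans, over this 1 list. It rests on all entries, and the genes were chosen on the last of them. In the sorted part MARS1 had 4 peaks, 3 of them intronic and 0 within 1000 nt of another. Exactly 4 peaks there were found in 114 protein-coding genes, so nothing is read from the contrast.

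**Figure D2:**
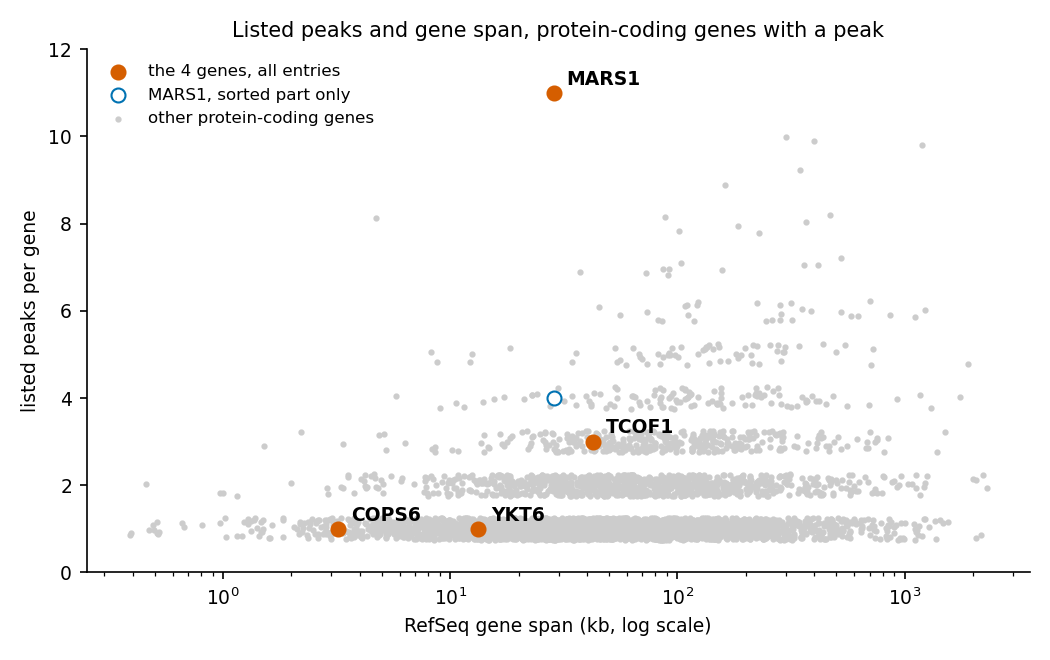
Number of listed peaks per gene (vertical axis, whole numbers with grey points spread slightly to show overlap) against RefSeq gene span in kb on a log axis, for 4474 protein-coding genes with a peak. Orange points are the 4 genes with all entries, and the open blue point is MARS1 in the sorted part alone, where it has 4 peaks in place of 11.

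TCOF1 (ENSG00000070814.22) covers 150357697 to 150400293 on chromosome 5, a span of 42597 nt. Its 3 peaks were all among the last entries and carried 3 different labels. The first, at 150374267-150374387, was labelled exon and was 121 nt wide. That was the widest of the 16 peaks: 55 of the 9401 peaks of the list, and 3 of those labelled exon, were at least as wide, this peak included. The second, at 150395003-150395031, was intronic and 29 nt wide. The third, at 150399867-150399903, was labelled as a transcription termination site, was 37 nt wide and ended 390 nt before the upper end of the gene.

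The TCOF1 peaks were far apart, with 20615 and 4835 nt between neighbours. A contrast with MARS1 in this rests on the last entries. In the sorted part alone the nearest gaps between MARS1 peaks were 6268 to 10182 nt. The nearest peak of the sorted part to any TCOF1 peak was 156677 nt away and assigned to NDST1. Per 10 kb TCOF1 had 0.704 peaks with all entries and 0 in the sorted part. With all entries, 20.3% of protein-coding genes with a peak were as dense or denser. TCOF1 was chosen on these entries, so nothing is read from that share. The protein-coding genes most like TCOF1 in number of peaks and span were SHCBP1, VBP1 and S100PBP, each with 3 peaks and a span within 1.007 times its own. All 3 lay inside the RefSeq span in SHCBP1 and S100PBP, but only 2 of 3 did in VBP1. The exonic TCOF1 peak was 121 nt wide, against at most 38 nt for the 9 peaks of these genes. In SHCBP1 2 peaks lay within 1000 nt of each other. In VBP1, S100PBP and TCOF1 none did.

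COPS6 (ENSG00000168090.10) is a short gene, with a span of 3219 nt on the plus strand of chromosome 7, from 100088969 to 100092187. Only 10.5% of protein-coding genes are shorter. Its single peak, at 100090593-100090653, was the first of the last 12 entries. It was labelled exon, lay near the middle of the span (1624 nt from the start and 1534 nt from the end) and was 61 nt wide. Of the exon-labelled peaks of the list 35 were at least this wide, this peak included. The nearest peak of the sorted part was 4823 nt away at 100095477-100095500, in the neighbouring gene MCM7, which encodes a subunit of the replicative helicase. Genes with 1 peak and nearly the same span were ZBTB3, HOXC9 and SRSF2, the last a splicing factor. Of these only SRSF2 had its peak, of 47 nt and of the promoter class, inside its RefSeq span.

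YKT6 (ENSG00000106636.9) spans 13317 nt of the plus strand of chromosome 7, from 44200978 to 44214294. Its single peak, at 44213674-44213708, was labelled 3' UTR, was 35 nt wide and ended 586 nt before the end of the gene. This is near the end for the class. Of 817 such peaks inside other protein-coding genes of known strand, 84.1% were at least as far from the gene's end. No other listed peak was close: the nearest in the sorted part was 194505 nt away. Genes with 1 peak and a span within 1.002 times that of YKT6 were the mRNA export receptor gene NXF1, RBM14 and PCIF1, an mRNA cap methyltransferase gene. Their peaks were labelled promoter, exon and exon and were 19, 25 and 15 nt wide.

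By their median, the 16 peaks were wider than the rest of the list. Their median was 36 nt (range 18 to 121 nt), against 23 nt (interquartile range 19 to 31 nt) for the other 9385 peaks. Of the 16, 14 were above that median and 10 above the upper quartile. The 12 last entries had a median of 37 nt, and the 4 MARS1 peaks of the sorted part had a median of 31 nt. Widths were also set against other peaks of the same class. In the 3' UTR and exon classes, whose other peaks had medians of 24 and 23 nt, the peaks of the 4 genes were 35 and 50 nt and 61 and 121 nt wide. In the intron class, with a median of 23 nt for other peaks, the 8 peaks of the 4 genes ran from 18 to 37 nt. Other promoter and termination site peaks were wider, with a median of 26 nt and an upper quartile of 38 nt in each class. The 37 nt peaks of MARS1 and TCOF1 in these classes were below that quartile, and both 48 nt promoter peaks of MARS1 were above it. The entries at the end of the list were part of how the genes were chosen, so this is given without a test.

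**Figure D3:**
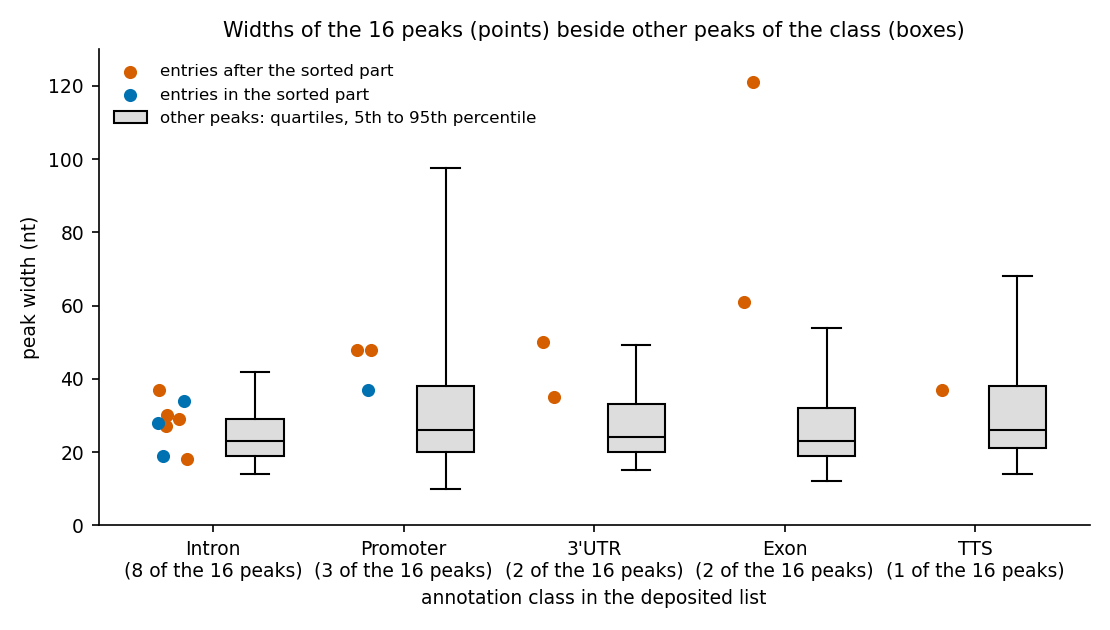
Width in nt of the 16 peaks (points) by annotation class, beside the other peaks of the same class (boxes: median and quartiles, with whiskers at the 5th and 95th percentiles). Orange points are entries after the sorted part and blue points entries in it. Both exonic points, 61 and 121 nt, stand above the whisker of their class, and the intronic points overlap theirs.

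By class, 8 of the 16 peaks were intronic, 3 promoter, 2 exon, 2 3' UTR and 1 termination site. Of the other 9385 peaks 51.8% were intronic (Wilson 95% interval 50.8 to 52.8%, counting error only, with peaks taken as independent). All but 1 of the 8 intronic peaks were in MARS1, so the nearness of the 2 shares rests on 1 gene. None of the 16 was in the intergenic class, which held 11.3% of the other peaks (10.7 to 12%). All 16 lay inside the RefSeq span of their gene, and no peak assigned to another gene overlapped these spans.

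The last 12 entries also had an order of their own. The first 4 of them named each gene once: COPS6, TCOF1, MARS1 and YKT6, with peaks of 61, 121, 48 and 35 nt. All 4 were above the upper quartile of the other peaks of the list, 31 nt. The following 8 were in genome order within a gene, 6 in MARS1 and then 2 in TCOF1, with a median of 33.5 nt. No position was listed more than once, and none of the 12 touched a peak of the sorted part. What put these entries at the end is not given in the sources used here and was not tested.

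Neighbouring genes did not share the peaks. MARS1 overlaps ARHGAP9 by 757 nt at its start and DDIT3, a stress-induced transcription factor gene, by 65 nt at its end. The nearest MARS1 peaks were 852 nt from ARHGAP9 and 496 nt from DDIT3. The microRNA gene MIR6758 lies inside MARS1 and was 2600 nt from the nearest peak. Beside COPS6, the microRNA genes MIR25, MIR93 and MIR106B inside MCM7 were 2906 nt or more from the COPS6 peak. No listed peak overlapped any of these microRNA genes, ARHGAP9 or DDIT3.

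The partners of each gene were examined as 4 lists, and their counts are descriptions, since the list of peaks has no expression values: frequent peaks and abundant RNA cannot be told apart here. Aminoacyl-tRNA synthetases, the family of MARS1 with the scaffold proteins of their complex, had a peak in 12 of 23 genes (52.2%, against 22.3% of all protein-coding genes) and 2 or more in 5 (against 7.56%). Without MARS1 this was 11 of 22 genes with 21 peaks, 14 of them intronic. MARS1 led the list only with the last entries: in the sorted part it had 4 peaks, fewer than the 5 each of IARS1 and LARS1. In IARS1, the isoleucyl enzyme, all 5 were intronic, and in LARS1, the leucyl enzyme, 2 were. FARSB and QARS1 had 2 each and CARS1 had 1. In QARS1 both peaks were of the promoter class. In none of these other genes were peaks within 1000 nt of each other. Per 10 kb MARS1 had 3.85 peaks with all entries and 1.40 in the sorted part, against 2.27 in QARS1, 0.599 in IARS1 and 0.718 in LARS1.

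RNA polymerase I genes and treacle-related genes had a peak in 7 of 17 cases (41.2%, against 22.3% of all protein-coding genes), and in 6 of 16 without TCOF1. TCOF1 had 3 peaks with all entries and 0 in the sorted part, and no other gene of this list had more than 1. POLR1B and TAF1B, subunits of the polymerase and of its promoter selectivity factor, had 1 intronic peak each. POLR1D, mutated like TCOF1 in Treacher Collins syndrome, had 1 at a termination site, and POLR1E and POLR1F had 1 each in the 3' UTR. The widths of these 5 peaks were 27 to 48 nt.

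COP9 signalosome genes had a peak in 3 of 10 cases (30.0%), COPS6 among them. Of the 10, 0 had 2 or more, against 7.56% of all protein-coding genes. COPS6 had its exonic peak of 61 nt, against 1 intronic peak each in COPS3 (37 nt) and COPS5 (28 nt), the catalytic subunit. Without COPS6 the share was 22.2%, next to the 22.3% of all protein-coding genes. SNARE genes had a peak in 14 of 37 cases (37.8%), and in 13 of 36 without YKT6 (36.1%). GOSR1, a SNARE of the Golgi, had 3 peaks, all intronic. STX18, STX1A, VAMP4 and VTI1A had 2 each and SEC22B had 1. Both STX1A peaks lay end to end, between 73701929 and 73701948 on chromosome 7. YKT6 had its single peak in the 3' UTR, as did SEC22B, with widths of 35 nt in YKT6 and 27 nt in SEC22B.

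**Figure D4:**
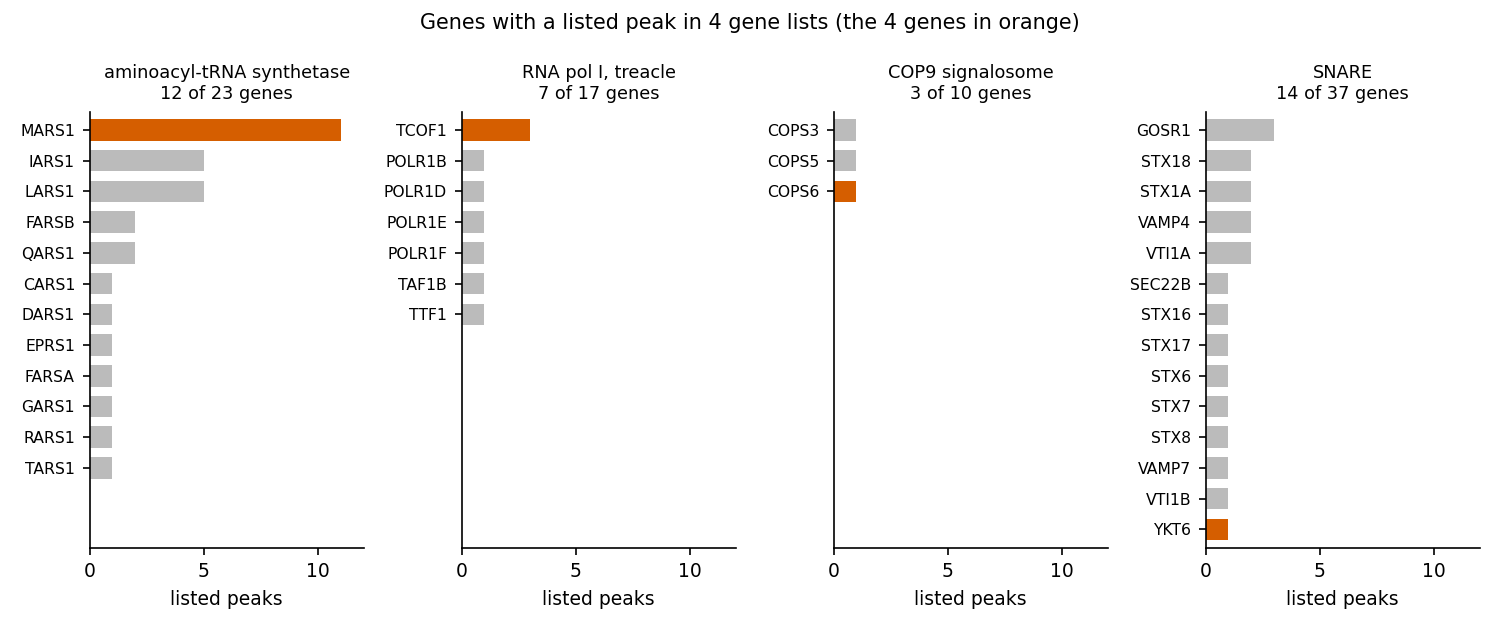
Listed peaks per gene (horizontal axis) for the genes with at least 1 peak in each of 4 lists, with MARS1, TCOF1, COPS6 and YKT6 in orange and the other genes in grey. MARS1 has 11 peaks against 5 in the next synthetase genes, TCOF1 has 3 against 1 in each other gene of its list, and COPS6 and YKT6 have 1 each. All entries are counted; in the sorted part MARS1 has 4 peaks, fewer than the next synthetase genes, and TCOF1, COPS6 and YKT6 have 0.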

How the data were processed

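PAR-CLIP was done on HEK293T cells (3 SMD2IP libraries and 1 Input library, grouped by title). The authors deposited 1 list of peak positions with a gene, transcript and class per peak. Bowtie2 2.5.1, Trim Galore 0.6.10 and build hg38 are named in the submitters' processing notes. How peaks were called, with what threshold, from pooled or separate libraries, against the Input or not, and how they were annotated is not given in the sources used here, and each could change which peaks are listed. Starts were counted from 0 and are printed from 1.

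Gene spans were taken from RefSeq (GRCh38.p14) and matched by symbol and chromosome. The RefSeq promoter table matched 3 of the 4 genes, not TCOF1. It gave the strand, so distances of other peaks from a gene's start or end cover only genes it lists. No genome was used, so peak sequences are not shown. A gene was counted as having a peak if any entry named it, intergenic class included. Peaks of 1 list are not replicates, and no test was made. Members and gene lists were chosen with earlier results of these data known. Named genes are the 4, for each the 3 protein-coding genes nearest in number of peaks and then span, up to 6 genes of each list by number of peaks, and neighbours. Counting was tried on simulated lists. Scripts ran in Python 3.11.15 (pandas 2.3.3, numpy 2.4.6; intervals by scipy 1.17.1, plots by matplotlib 3.10.9).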

Additional observations from a re-analysis of the deposited data

How the results depend on the processing

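Of 48 alternative values over 11 results, 36 stayed within 1.5 times the reported count or, for the median width, within the spread of the 16 peaks (SD 24.2 nt). This total does not measure stability, since several values could not change. None of the 16 peaks was intergenic or outside its gene span, and COPS6 and YKT6 had 1 peak each. The SD is that of single widths, wide enough to take in 23 nt, the median of the other peaks. The COP9 count fell from 3 to 2 genes without the last entries and still counted as unchanged. Leaving out the last 12 entries moved the listed peaks of MARS1 to 4 and those of TCOF1, COPS6 and YKT6 to 0 each, the intronic peaks of the 4 genes to 3, and MARS1 peaks with another within 1000 nt to 0 (the last chosen after seeing the data). Fewer entries are the cause by construction. Joining peaks within 500 nt left 7 in MARS1. Joining those within 50 nt could not change a count of the 4 genes, whose smallest gap was 73 nt. It took the SNARE genes with at least 2 peaks to 4. Without MARS1 the intronic peaks were 1. With at least 2 peaks per gene, the counts were 5 for aminoacyl-tRNA synthetase genes, 1 for RNA polymerase I and treacle-related genes, 0 for COP9 signalosome genes and 5 for SNARE genes. These lists hold 23, 17, 10 and 37 genes, and 7.56% of all protein-coding genes had at least 2 peaks. Leaving the 4 genes out of the lists, added after seeing the data, gave 11, 6, 2 and 13 genes with a peak. Depth per library is unknown, so no limit can be set for genes without a peak.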
